A study of Mus musculus with 12 samples.

Results

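The genes described here are 10 interferon-linked antiviral effectors: Mx1, Mx2, Rsad2 (viperin), Cmpk2, Isg20, Bst2 (tetherin), Samhd1, Eif2ak2 (PKR), Xaf1 and Ifitm3. They were taken by gene symbol from a deposited table of 40847 genes, and each of the 10 was found there and passed the filter on low counts. The table holds RNA-seq read counts from cultured mouse fetal liver alveolar-like macrophages (FLAMs), which are macrophages grown from fetal liver as a model of the alveolar macrophage. All cells were kept in GM-CSF at 30 ng/ml. There were 4 groups of 3 libraries. The untreated group received nothing further, the TGFβ group was kept in recombinant human TGFβ1 at 20 ng/ml, the Pam3 group received the TLR2 ligand Pam3CSK4 at 25 ng/ml for 18 h, and the Pam3+TGFβ group received both. The series asks whether TGFβ changes the answer of these cells to TLR2, in particular for type I interferon. The labels give no mouse strain and do not say whether the libraries of a group came from separate cultures or animals, so the p-values measure the spread between these libraries, which may be technical.

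Type I interferon made by infected or activated cells binds a receptor (Ifnar1 and Ifnar2) whose kinases Jak1 and Tyk2 activate transcription factors. These bind a promoter element, the interferon-stimulated response element (ISRE), in front of many antiviral genes. The effectors act at different steps of a viral life cycle. Ifitm3 hinders fusion of virus with endosomal membranes, and Bst2 holds budding particles at the cell surface. The Mx proteins are dynamin-like GTPases that act on viral nucleoproteins. Rsad2 converts CTP to a chain-terminating nucleotide, and Cmpk2 is a mitochondrial nucleotide kinase encoded beside it. Samhd1 hydrolyses deoxynucleotides, Isg20 is an exonuclease, Eif2ak2 senses double-stranded RNA and phosphorylates the translation factor eIF2, and Xaf1 antagonises the apoptosis inhibitor XIAP. In many inbred laboratory mouse strains Mx1 carries a disabling mutation, so its mRNA level is no measure of Mx1 function.

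Promoter windows of 8 of these genes (not Mx1 and Mx2) were read from a RefSeq table of build GRCm38.p6, 250 bases before to 50 bases after an annotated start, and each was matched exactly, at 1 place, to GRCm39. They were searched on either strand for an ISRE-type motif, GAAA and a second GAAA with 2 free bases between them. It occurred in 4 of their 10 windows (Isg20 has 3), against 3.44% of 32851 windows of 300 bases over all genes. The matching stretches are shown, with the motif in capitals, because all 4 genes had a called positive interaction below. So had Cmpk2, Xaf1, Samhd1 and Isg20, whose windows held no match. For Ifitm3 and Eif2ak2 the match lies in an annotated exon, and only the bases around it are given.
Bst2 (chr8:71990117-71990266, minus strand of GRCm39): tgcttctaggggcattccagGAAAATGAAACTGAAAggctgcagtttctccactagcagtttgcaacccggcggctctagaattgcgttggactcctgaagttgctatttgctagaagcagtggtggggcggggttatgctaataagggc
Rsad2 (chr12:26506452-26506591, minus strand): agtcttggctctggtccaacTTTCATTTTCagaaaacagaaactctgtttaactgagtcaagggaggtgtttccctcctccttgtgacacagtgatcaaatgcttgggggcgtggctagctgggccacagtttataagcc
Ifitm3 (chr7:140590628-140590657, minus strand): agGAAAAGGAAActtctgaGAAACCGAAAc
Eif2ak2 (chr17:79189973-79189993, minus strand): agtccgccggGAAAACGAAAc
In Bst2 the motif stood at overlapping positions that begin 130 and 124 bases before the start, and in Rsad2 it began 120 bases before the start, on the opposite strand. In Ifitm3 it began at bases 3 and 20 counted from the RefSeq start, and in Eif2ak2 at base 19. The GENCODE M39 records of these genes begin further upstream, at 140591282 for Ifitm3 and 79190012 for Eif2ak2. The positions therefore hold for the RefSeq starts only. A second motif, TTCNNNGAA (the GAS type, another element of interferon-responsive genes), occurred in 5 of the 10 windows, those of Samhd1, Bst2, Ifitm3, Eif2ak2 and 1 of Isg20, against 8.3% of all windows. In Bst2 and Ifitm3 it overlapped an ISRE-type match. A match describes letters and was not tested for binding.

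Library totals ran from 34036650 to 44374115 counts. No 2 replicates of a group agreed within counting noise, and 1 library stood apart in 3 of the groups. Untreated replicate 3, TGFβ replicate 2 and Pam3 replicate 1 had a chi-square per degree of freedom of 133 to 220 against the others of their group, which differed from each other by 16 to 24.6. With these 3 left out together, a fit chosen after seeing the data, the effectors called numbered 7 for Pam3 without TGFβ and 10 with it, 7 for TGFβ at rest and 9 with Pam3, and 10 for the interaction. The calls lost were the Pam3 response without TGFβ of Ifitm3 (0.33, adjusted p 0.241), Isg20 (0.61, adjusted p 0.0933) and Samhd1 (0.16, adjusted p 0.0613) and the resting TGFβ effect on Isg20 (0.33, adjusted p 0.282). All 7 macrophage markers and all 8 alveolar macrophage markers on the list passed the count filter, and the summed macrophage markers ran from 31696 to 35915 CPM untreated, 16586 to 17499 with TGFβ, 34599 to 35658 with Pam3 and 25450 to 26129 with Pam3+TGFβ. Most of that sum was Lyz2. Itgam had means of 1088 CPM untreated and 38.8 with TGFβ, Adgre1 303 and 145, Cd68 858 and 549, and Csf1r 983 and 820. Mertk had 223 and 222 and Fcgr1 81.1 and 91.3. The alveolar list summed to 6393 to 8332 CPM over all libraries. Untreated and with TGFβ, Marco had means of 2147 and 123 CPM, Fabp4 31.1 and 0.132 and Itgax 335 and 168. Siglecf had 32.1 and 300.4, Pparg 117 and 225, Chil3 2954 and 5038, Ear2 654 and 1494, and Car4 448 and 774. The part of these differences in the TGFβ effects was not tested. The T cell, B cell and erythroid lists had no gene past the filter. The endothelial list had 3 of 4 past it and the hepatocyte, fibroblast and mast cell lists 1 each, the highest being Afp with group means from 5.77 to 9.27 CPM. Levels are given as CPM, the count divided by the TMM-scaled library total in units of 1e+06 counts. In whole cultures, fewer cells expressing a gene and less RNA per cell cannot be told apart.

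The effectors answered Pam3 in both conditions, and the answer was larger in cells kept in TGFβ. Without TGFβ, 10 of 10 rose with Pam3 (edgeR's quasi-likelihood test, Benjamini-Hochberg adjusted over 14749 genes), where 18.3% of all tested genes were called, 9.62% higher and 8.66% lower. Their median log2 fold change was 1.53, against 0.000375 for all genes. Under upper-quartile scaling the split of all genes went from 1419 higher and 1278 lower to 1299 and 1495, and 9 of 10 effectors were called higher, Ifitm3 being lost (0.37, adjusted p 0.058). With TGFβ, 10 of 10 rose as well, where 38.5% of all genes were called, 20.4% higher and 18.1% lower, and their median was 4.84 against -0.02. With that scaling the split of all genes in this comparison moved from 3008 higher and 2670 lower to 2477 and 3489, while 10 of 10 effectors were still called higher. The interaction, which subtracts the response to Pam3 alone from the response of TGFβ-treated cells, was called and positive for each of the 10, where 15.9% of all genes were called, 10.3% higher and 5.67% lower (1516 and 836 genes, or 1255 and 1097 with upper-quartile scaling). Its median was 2.53 on the log2 scale, and the values ran from 0.39 for Samhd1 to 5.89 for Ifitm3. Of 14749 genes ordered by the size of a positive interaction, Ifitm3 stood at position 11, Mx1 at 48 and Rsad2 at 105. Cmpk2 stood at 124, Mx2 at 131, Isg20 at 283, Xaf1 at 400, Bst2 at 518, Eif2ak2 at 689 and Samhd1 at 2173. Each effector was higher in the Pam3 libraries than in those without Pam3 in both conditions, with no overlap. So were 15.6% of all genes in the absence and 25.4% in the presence of TGFβ, while 15.8% and 25.0% were lower without overlap.

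TGFβ lowered 5 of the genes at rest and raised them in the presence of Pam3 (Mx1, Mx2, Cmpk2, Bst2 and Eif2ak2), while Ifitm3 was lower and Isg20 higher with TGFβ in both conditions. The share of all genes with these joint patterns was not counted, and the shares below are for each comparison alone. In resting cells 7 of the 10 fell, 1 (Isg20) rose and 2 (Rsad2 and Xaf1) did not pass the test, where 51.0% of all genes were called, 28.1% lower and 22.9% higher. Their median log2 change was -0.68, against -0.01 for all genes. The same 7 were lower and Isg20 higher without overlap of the libraries, as were 30.3% and 26.1% of all genes. In the presence of Pam3, 8 of 10 were higher with TGFβ, Ifitm3 was lower and Samhd1 did not pass the test, where 45.3% of all genes were called, 21.5% higher and 23.8% lower. Their median was 1.33, against -0.00171 for all genes. The same 8 were higher and Ifitm3 lower without overlap, as were 26.8% and 28.3% of all genes. The group means of 9 of the 10 genes were lowest in the TGFβ group, and those of 8 were highest in the Pam3+TGFβ group. How many of all genes share these group orders was not counted. These comparisons share libraries, so their values are set side by side and not as independent results.

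**Figure D1:**
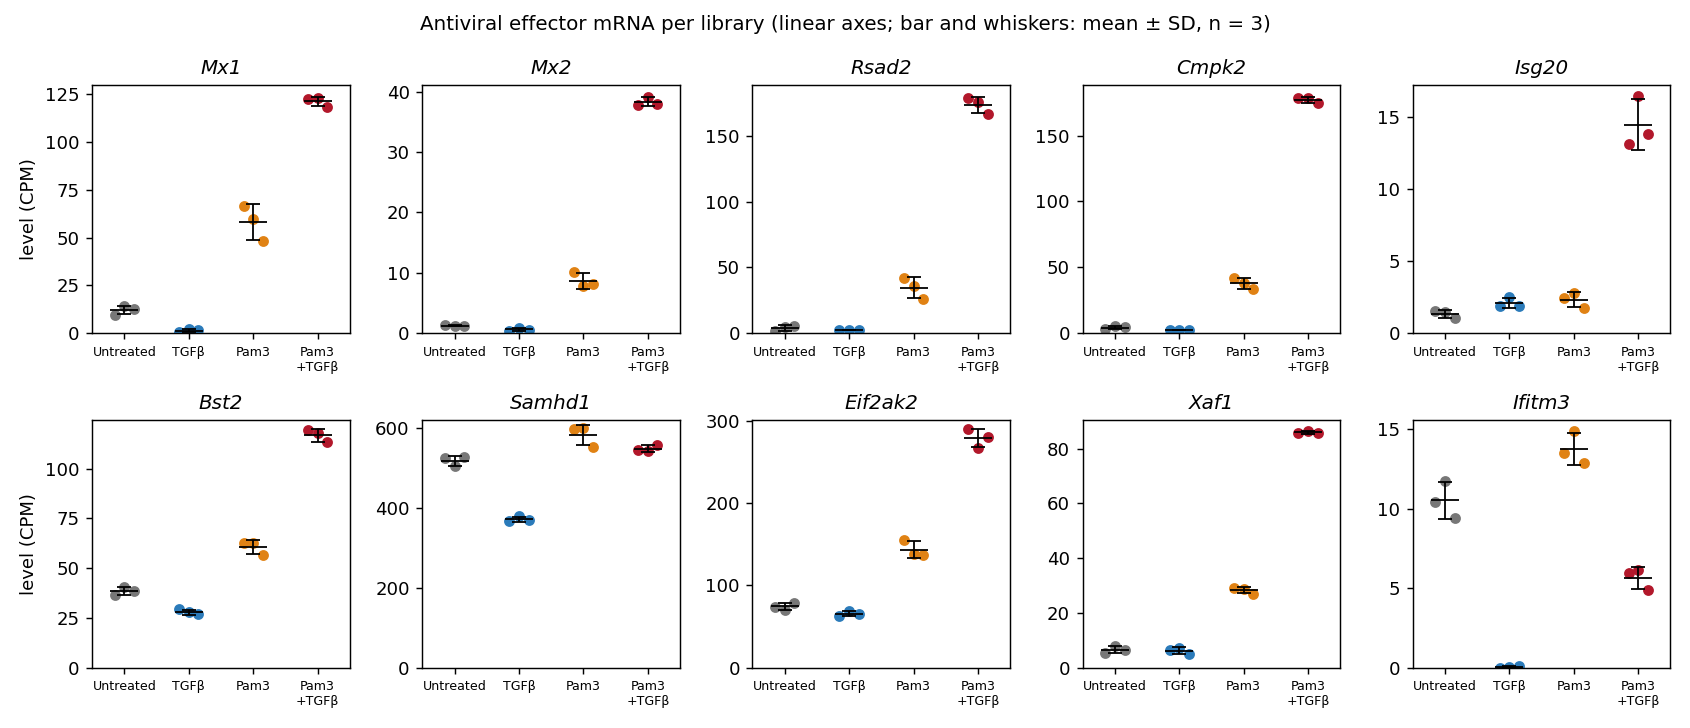
Level of each antiviral effector in CPM (linear y axis from 0) in the 12 libraries by group. Points are libraries, and the bar and whiskers are the mean ± SD of 3 libraries. Of the 10 genes 8 are highest with Pam3+TGFβ, whereas Samhd1 and Ifitm3 are highest with Pam3 alone. The share of all genes with such an order was not counted.

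The Mx GTPases lie on chromosome 16 of GRCm39, Mx1 at 97248235 to 97264107 on the minus strand and Mx2 at 97336508 to 97362100 on the plus strand. Mx1 stood at 9.52, 13.9 and 12.8 CPM in the untreated libraries and at 0.47, 1.85 and 1.47 CPM with TGFβ. It reached 66.6, 59.5 and 47.9 CPM with Pam3 and 123, 123 and 118 CPM with Pam3+TGFβ. The groups did not overlap, and the order from low to high was TGFβ, untreated, Pam3, Pam3+TGFβ. The resting effect of TGFβ on Mx1 was -3.23 (log2, SE 0.329, adjusted p 3.37e-05), from a mean of 12.1 ± 2.28 to 1.26 ± 0.713 CPM (SD, n = 3). Pam3 raised it by 2.27 (SE 0.234, adjusted p 0.000161) without and by 6.56 (SE 0.311, adjusted p 2.03e-07) with TGFβ. The interaction was 4.29 (SE 0.394, adjusted p 8.26e-05). With Pam3 the level was higher with TGFβ than without by 1.06 (SE 0.214, adjusted p 0.00315). That last call was lost with limma-trend on the authors' normalized values (1.09, adjusted p 0.0763).

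Mx2 was the scarcer gene, with 1.26, 1.23 and 1.11 CPM in untreated libraries and 0.387, 0.914 and 0.576 CPM with TGFβ. It stood at 10.1, 7.72 and 8.1 CPM with Pam3 and at 37.8, 39.2 and 37.9 CPM with Pam3+TGFβ. Again no group overlapped another. The TGFβ effect was -0.92 at rest (SE 0.233, adjusted p 0.00179) and 2.14 with Pam3 (SE 0.117, adjusted p 5.32e-14), and the interaction was 3.06 (SE 0.258, adjusted p 1.97e-09). Set beside Mx1, the resting decrease of Mx2 was smaller and its gain with TGFβ after Pam3 was larger, although the difference between the genes was not tested. In the fit of the 6 resting libraries alone, the resting decrease of Mx2 was not called (-0.92, adjusted p 0.0705).

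Rsad2 and Cmpk2 are neighbours on chromosome 12 (26492745 to 26506451, minus strand, and 26519203 to 26529836, plus strand). They point away from each other, with 12752 bases between their starts. Rsad2 stood at 1.55, 4.91 and 5.42 CPM in untreated libraries, 2.24, 2.02 and 2.02 CPM with TGFβ, 41.7, 35.9 and 26.1 CPM with Pam3, and 179, 176 and 167 CPM with Pam3+TGFβ. Cmpk2 stood at 2.92, 5.1 and 4.51 CPM in untreated libraries, 2.3, 2.05 and 2.44 CPM with TGFβ, 41.9, 38.3 and 33.4 CPM with Pam3, and 179, 179 and 175 CPM with Pam3+TGFβ. Both were low in untreated replicate 1 relative to the other untreated libraries, and for Rsad2 that library lay below the TGFβ libraries. The pair had the closest course of the 45 pairs of effectors (Pearson r 0.995 over 12 libraries that share their treatment groups, given as a description).

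Pam3 raised Rsad2 by 3.13 (SE 0.34, adjusted p 0.000251) without and 6.38 (SE 0.378, adjusted p 1.26e-06) with TGFβ. The interaction was 3.24 (SE 0.517, adjusted p 0.00287). For Cmpk2 the responses were 3.18 (SE 0.14, adjusted p 7.67e-10) and 6.29 (SE 0.155, adjusted p 1.37e-13), and the interaction was 3.12 (SE 0.21, adjusted p 8.4e-08). After Pam3, the mean level was 5.03 times higher for Rsad2 and 4.69 times higher for Cmpk2 with TGFβ than without. The resting TGFβ effect of -0.89 on Cmpk2 was called (SE 0.178, adjusted p 0.000755). That of -0.92 on Rsad2 was not (SE 0.44, adjusted p 0.119), but it was called without untreated replicate 1 (-1.28, adjusted p 0.00036) and with DESeq2 (-0.91, adjusted p 0.0436).

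Among the enzymes that degrade nucleic acids or their precursors, Isg20 and Samhd1 followed different courses. Isg20 lies on the plus strand of chromosome 7 at 78562598 to 78570153. Its libraries held 1.53, 1.49 and 1.03 CPM untreated, 1.91, 2.52 and 1.86 CPM with TGFβ and 2.42, 2.81 and 1.75 CPM with Pam3. With Pam3+TGFβ it reached 13.2, 16.5 and 13.8 CPM, above all other libraries. The single-treatment groups overlapped each other. Pam3 raised it by 0.79 without TGFβ (SE 0.206, adjusted p 0.00774) and by 2.78 with TGFβ (SE 0.177, adjusted p 1.36e-12), with an interaction of 2.00 (SE 0.273, adjusted p 5.5e-06). Its mean with Pam3+TGFβ was 6.23 times that with Pam3, the highest such ratio of the 10 genes. Isg20 was the only effector called higher with TGFβ at rest (0.63, SE 0.207, adjusted p 0.0132). That call was lost without untreated replicate 3 (0.48, adjusted p 0.0761), without TGFβ replicate 2 (0.5, adjusted p 0.0766) and in the fit of the 6 resting libraries (0.65, adjusted p 0.0598). The Pam3 response without TGFβ was lost without Pam3 replicate 2 (0.63, adjusted p 0.0667).

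Samhd1, on the minus strand of chromosome 2 at 156939453 to 156977187, was abundant in every group. Of the effectors it had the smallest Pam3 responses and the smallest interaction. It stood at 525, 504 and 527 CPM untreated, 368, 379 and 370 CPM with TGFβ, 597, 599 and 554 CPM with Pam3, and 546, 542 and 559 CPM with Pam3+TGFβ. The TGFβ libraries were the lowest, and the Pam3 groups with and without TGFβ overlapped. TGFβ at rest gave a lower level (log2 -0.48, SE 0.0472, adjusted p 3.77e-09). After Pam3 the difference of -0.09 was not called (SE 0.047, adjusted p 0.137). Pam3 raised it by 0.17 without TGFβ (SE 0.047, adjusted p 0.0117), a call lost without Pam3 replicate 1 (0.15, adjusted p 0.0545) or Pam3 replicate 2 (0.15, adjusted p 0.0731), and by 0.56 with TGFβ (SE 0.0472, adjusted p 3.58e-10). The interaction of 0.39 was called (SE 0.0665, adjusted p 0.000112).

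Eif2ak2 and Xaf1 rose by steps from resting to Pam3 to Pam3+TGFβ. Eif2ak2 lies on the minus strand of chromosome 17 at 79159972 to 79190012. Its libraries held 74.1, 70.4 and 79.1 CPM untreated, 63.2, 69.4 and 65 CPM with TGFβ, 155, 138 and 137 CPM with Pam3, and 289, 267 and 280 CPM with Pam3+TGFβ. Its mean was 1.94 times higher with Pam3+TGFβ than with Pam3 (log2 0.96, SE 0.0557, adjusted p 1.77e-13), and the interaction was 1.14 (SE 0.0794, adjusted p 6.78e-11). Its resting decrease with TGFβ was small (-0.18, SE 0.0568, adjusted p 0.011), and was not called without untreated replicate 3 (-0.13, adjusted p 0.0666), TGFβ replicate 1 (-0.13, adjusted p 0.12) or TGFβ replicate 3 (-0.15, adjusted p 0.0742). Xaf1 lies on the plus strand of chromosome 11 at 72192397 to 72204559. Its libraries held 5.31, 7.84 and 6.39 CPM untreated and 6.59, 7.36 and 4.87 CPM with TGFβ, groups that overlapped (-0.06, SE 0.133, adjusted p 0.752). It reached 29.3, 28.7 and 27.1 CPM with Pam3 and 85.8, 86.5 and 85.6 CPM with Pam3+TGFβ. Xaf1 thus started from the same range of levels with and without TGFβ and stood 3.03 times higher with TGFβ after Pam3. The interaction was 1.66 (SE 0.172, adjusted p 8.11e-07).

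The membrane proteins Bst2 and Ifitm3 diverged. Bst2 lies on the minus strand of chromosome 8 at 71986895 to 71990114. Its libraries held 36.4, 40.8 and 38.3 CPM untreated, 29.3, 27.9 and 26.8 CPM with TGFβ, 62.5, 62.6 and 56.6 CPM with Pam3, and 119, 118 and 113 CPM with Pam3+TGFβ. The groups were separate. TGFβ lowered it at rest (-0.46, SE 0.0627, adjusted p 8.86e-07) and raised it after Pam3 (0.95, SE 0.0605, adjusted p 1.16e-12), with an interaction of 1.41 (SE 0.0871, adjusted p 7.96e-12). Bst2 is also used as a surface marker of plasmacytoid dendritic cells. Of the other 6 markers of those cells, Ly6d and Klk1 had no count, Siglech had at most 2 counts in a library, and Cox6a2 at most 13. Ccr9 had at most 36 counts, with means of 0.207 CPM untreated, 0.226 with TGFβ, 0.538 with Pam3 and 0.665 with Pam3+TGFβ. Tcf4, which macrophages also express, had means of 17 CPM untreated, 20.6 with TGFβ, 23.7 with Pam3 and 38.1 with Pam3+TGFβ. Of the 7 genes of the list, Bst2 included, 3 passed the filter. The summed level of the list, Bst2 included, ran from 48.5 to 88.1 CPM over the other groups and from 151 to 159 CPM with Pam3+TGFβ. Most of that sum was Bst2 itself, and the part of such cells in the Bst2 values was not tested.

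Ifitm3, on the minus strand of chromosome 7 at 140589499 to 140591282, was nearly absent with TGFβ alone. It had 395, 488 and 330 counts in the untreated libraries and 0, 3 and 5 counts with TGFβ, or 10.4, 11.7 and 9.41 CPM against 0, 0.0741 and 0.131 CPM. The summed counts gave a level 152 times higher without TGFβ (95% exact interval 76.8 to 352, which covers counting error only). With Pam3 it stood at 13.5, 14.8 and 12.9 CPM, and with Pam3+TGFβ it stood at 5.93, 6.16 and 4.86 CPM, above every TGFβ library and below every library without TGFβ. The TGFβ effect was -7.17 at rest (SE 0.275, adjusted p 3.29e-17) and -1.29 with Pam3 (SE 0.141, adjusted p 2.81e-08). The Pam3 response with TGFβ was 6.27 (SE 0.296, adjusted p 3.82e-15) and the interaction 5.89 (SE 0.354, adjusted p 4.65e-12). Without TGFβ replicate 3, the library with 5 counts, these became -7.93 at rest, 7.04 and 6.65. The Pam3 response without TGFβ, 0.38 (SE 0.134), had an adjusted p of 0.0478 and was lost in 6 of 12 fits that left out a library and in 3 of 8 other settings, with adjusted p values over these settings from 0.0156 to 0.64. So Ifitm3 had the largest positive interaction of the 10 genes, while its level after Pam3 was 0.411 times as high with TGFβ as without.

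Markers of neutrophils, cells that also express Ifitm3, had a lower summed level with TGFβ (4.11 to 5.31 CPM) than untreated (13.6 to 15.8 CPM), and ran from 16.4 to 17.2 CPM with Pam3 and from 5.81 to 6.88 CPM with Pam3+TGFβ. Of the 7 on the list 4 passed the filter, and most of the sum was S100a8, with means of 13.8 CPM untreated and 3.07 with TGFβ. The other 3 that passed had higher means with TGFβ than untreated, S100a9 0.993 against 0.253 CPM, Ltf 0.587 against 0.361 and Camp 0.174 against 0.00802. Ly6g had at most 3 counts in a library, and Mpo and Elane, which mark neutrophil precursors, had no count and at most 4. The part of such cells in the Ifitm3 values was not tested.

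**Figure D2:**
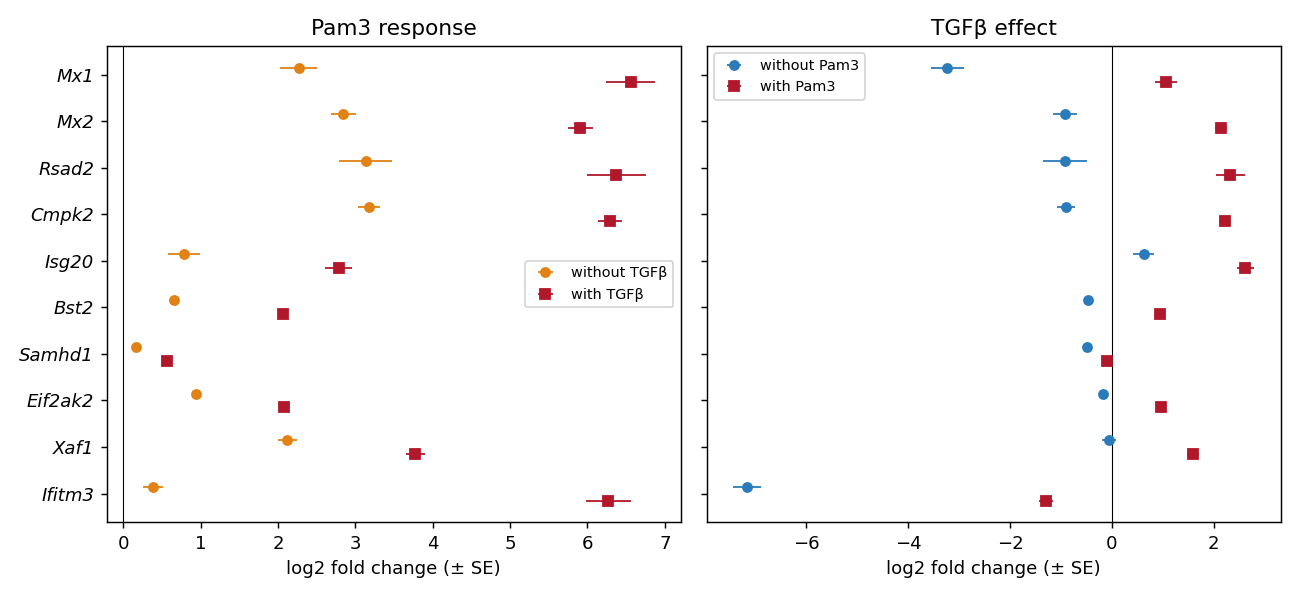
Log2 fold changes of the 10 effectors (x axis, ± SE) for the Pam3 response (left, circles without and squares with TGFβ) and the TGFβ effect (right, circles without and squares with Pam3). Every square on the left lies right of its circle, and Ifitm3 is the only gene whose called TGFβ effect with Pam3 is negative.

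Of the relatives of Ifitm3, Ifitm2 and Ifitm6 also fell with TGFβ but had no called response to Pam3 in either condition. Both lie near it on chromosome 7 and encode related membrane proteins. Ifitm2 stood at 53.4, 61.1 and 51.4 CPM untreated, 22.2, 21.7 and 20.3 CPM with TGFβ, 54.6, 56.2 and 56.4 CPM with Pam3, and 19.1, 22.6 and 20.9 CPM with Pam3+TGFβ. It was lower with TGFβ both at rest (log2 -1.37, adjusted p 3.86e-14) and with Pam3 (log2 -1.42, adjusted p 2.63e-14). Its interaction was -0.05 (SE 0.105, adjusted p 0.833). Ifitm6 fell by 5.97 at rest (adjusted p 8.88e-13), from a mean of 5.11 ± 0.311 to 0.08 ± 0.0505 CPM (SD, n = 3), and its interaction was -0.54 (SE 0.765, adjusted p 0.729). Ifitm10, on the same chromosome, rose with TGFβ in both conditions (1.91, adjusted p 2.1e-11, and 2.06, adjusted p 2.42e-12). Ifitm1 was below 0.6 CPM in each library and had no called change, and Ifitm7 did not pass the filter. Of these family members, Ifitm3 alone had a called interaction. Reads shared between these similar genes could move counts among them, and the counting rule for such reads is not given in the sources used here.

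**Figure D3:**
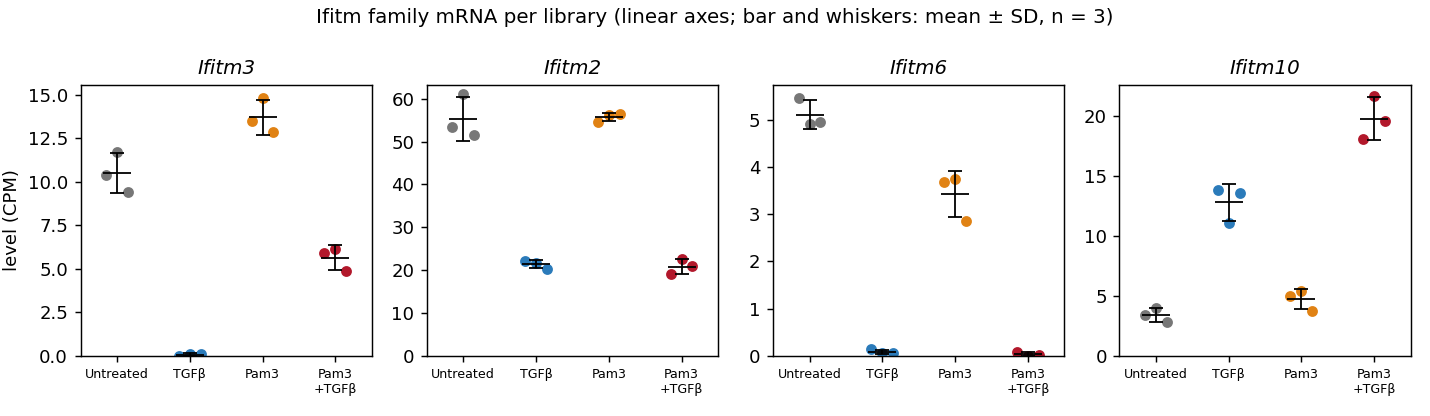
Level in CPM (linear y axis from 0) of Ifitm3 and 3 relatives in the 12 libraries by group, with the mean ± SD of 3 libraries. Ifitm3, Ifitm2 and Ifitm6 are lower and Ifitm10 higher with TGFβ, and in cells with TGFβ only Ifitm3 and Ifitm10 were called higher with Pam3.

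Over the whole list of 17 relatives, 16 passed the filter. Pam3 raised 3 and lowered 2 without TGFβ (9.62% and 8.66% of all genes) and raised 4 and lowered 3 with it (20.4% and 18.1%). TGFβ raised 6 and lowered 5 both at rest (22.9% and 28.1% of all genes) and with Pam3 (21.5% and 23.8%). In the interaction 2 were called higher (Adar and Dck) and 1 lower (Eif2ak3), against 10.3% and 5.67% of all genes, with a median of -0.02 against 0.0045 for all genes. Adar, an RNA-editing enzyme with an interferon-inducible promoter, rose by 0.72 with Pam3 without TGFβ and by 1.44 with it, an interaction of 0.73 (SE 0.0629, adjusted p 3.09e-09). Dck, a deoxynucleoside kinase that fills the pool Samhd1 drains, had an interaction of 0.53 (SE 0.0803, adjusted p 2.61e-05). The other kinases of eIF2 did not share the course of Eif2ak2. Eif2ak3 fell with Pam3 in the presence of TGFβ by 0.56 (adjusted p 1.61e-08), with an interaction of -0.37 (SE 0.0824, adjusted p 0.00197), while the interactions of Eif2ak1 and Eif2ak4 were -0.04 (SE 0.0748, adjusted p 0.813) and -0.03 (SE 0.0793, adjusted p 0.877). Cmpk1, the cytosolic counterpart of Cmpk2, had no called change in any comparison, with means from 106 to 120 CPM. Dnm1l and Dnm2, dynamins related to the Mx proteins, had interactions of -0.01 (adjusted p 0.952) and 0.03 (adjusted p 0.829). For Isg20l2 and Aen, nucleases related to Isg20, these were -0.04 (adjusted p 0.814) and 0.19 (adjusted p 0.185).

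The genes that carry the interferon signal were listed as well. Of 17, 14 passed the filter. With Pam3, 9 were called higher and 1 lower without TGFβ (9.62% and 8.66% of all genes), and 12 higher and 0 lower with TGFβ (20.4% and 18.1%). TGFβ at rest lowered 9 and raised 1 (28.1% and 22.9% of all genes), and with Pam3 present 7 were higher and 2 lower with TGFβ (21.5% and 23.8%). In the interaction 10 were called higher, 0 lower and 4 not called (10.3% higher and 5.67% lower over all genes), with a median of 0.91 against 0.0045 for all genes. The other 3 of the 17 did not pass the filter, all of them ligands. By role, the ligand Ifnb1 had no count outside Pam3+TGFβ, where it stood at 0.32, 0.482 and 0.226 CPM, and did not pass the filter. Ifnk had at most 12 counts in a library, and Ifne had no count. The receptor chains had no called interaction (Ifnar1 0.19, SE 0.0782, adjusted p 0.102, and Ifnar2 0.17, SE 0.0812, adjusted p 0.178), nor had the kinase Jak1 (0.12, SE 0.0618, adjusted p 0.217), while the kinase Tyk2 had one of 0.25 (SE 0.0643, adjusted p 0.00864). Jak1 was lower with TGFβ in both conditions, with log2 effects of -0.71 at rest and -0.59 with Pam3. The transcription factors Stat2 and Irf9 had interactions of 1.15 and 0.66 (adjusted p 3.67e-12 and 4.37e-06). Stat2 rose with TGFβ also at rest, by 0.24 (adjusted p 0.000165), where 7 of the 10 effectors fell.

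Irf7, the interferon-induced factor that amplifies interferon production, had means (± SD, n = 3) of 6.91 ± 2.13 CPM untreated, 5.53 ± 1.14 with TGFβ, 50.4 ± 5.82 in Pam3-treated cells and 220 ± 1.51 in cells given both, and its interaction was 2.45 (SE 0.28, adjusted p 0.000256). Irf3, its constitutive relative, had no called change in any comparison. The feedback inhibitors had called positive interactions, 2.43 for Usp18 (adjusted p 6.36e-05), 1.78 for Socs1 (adjusted p 4.49e-08) and 1.97 for Socs3 (adjusted p 1.21e-06). Usp18, which blocks the interferon receptor, was higher with TGFβ after Pam3 (1.73, SE 0.144, adjusted p 7.16e-08), as were most effectors. Socs1 and Socs3 fell with TGFβ at rest (-1.62, adjusted p 4.71e-10, and -2.1, adjusted p 4.34e-09) and did not differ by a called amount after Pam3 (0.17, adjusted p 0.234, and -0.12, adjusted p 0.391).

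**Figure D4:**
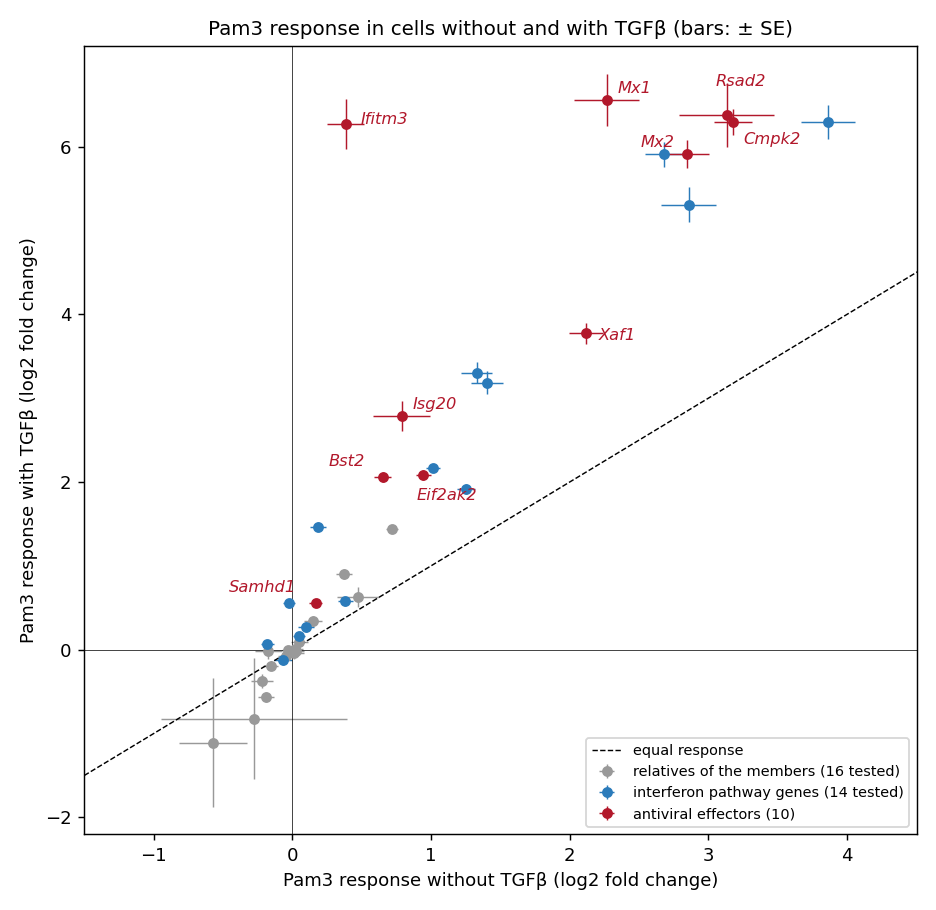
Log2 fold change with Pam3 without TGFβ (x axis) and with TGFβ (y axis), ± SE, for the 10 effectors, 14 interferon pathway genes and 16 relatives that were tested. All 10 effectors lie above the dashed line of equal response, Ifitm3 farthest from it, and most relatives lie near the origin.

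Compared per exon length, as CPM per kilobase of annotated exon, the order of the effectors differed between groups. Samhd1 was highest in untreated cells at 56.7 ± 1.38 CPM per kb (SD, n = 3), followed by Bst2 at 31.7 ± 1.8, Eif2ak2 at 13.7 ± 0.804, Ifitm3 at 8.21 ± 0.914 and Mx1 at 3.58 ± 0.675. Xaf1, Cmpk2, Rsad2 and Isg20 followed, each neighbour in that order overlapping the next, and Mx2 was last at 0.332 ± 0.0218. With TGFβ the first 3 places were unchanged, Mx1, Cmpk2 and Rsad2 stood close together below 0.6 CPM per kb, and Ifitm3 was last at 0.0534 ± 0.0513. With Pam3+TGFβ, Bst2 was first at 96.2 ± 2.61, ahead of Samhd1 at 60 ± 0.971 and Eif2ak2 at 51.3 ± 2.03. Cmpk2 and Rsad2 overlapped at 41 ± 0.535 and 40.1 ± 1.42, Mx1 stood at 36 ± 0.736, and Ifitm3 was again last at 4.41 ± 0.543. Exon lengths are those of GENCODE M39, and the transcripts in use in these cells were not measured.

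**Figure D5:**
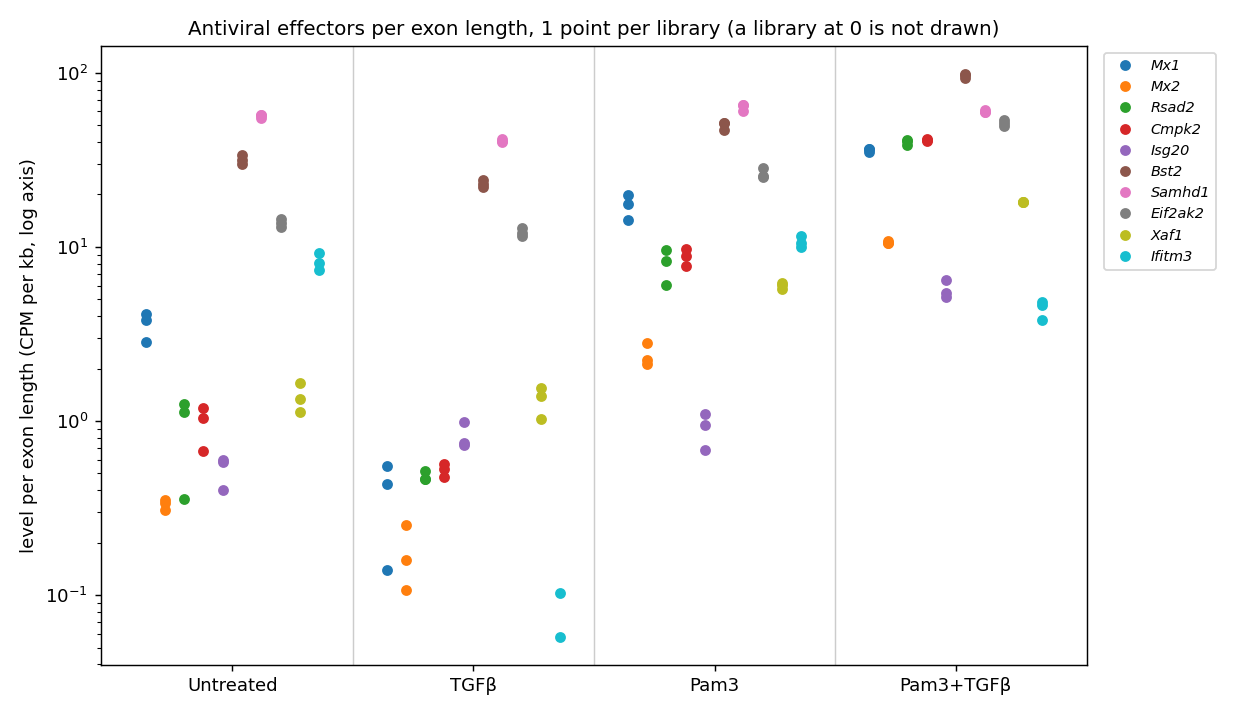
Level of each effector in CPM per kb of exon (log y axis) by group, with 1 point per library (the TGFβ library with no Ifitm3 count is not drawn). Samhd1 leads except with Pam3+TGFβ, where Bst2 stands highest, and Rsad2, Cmpk2 and Mx1 stand close together there.

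The courses of the effectors were alike for some pairs and not for others. Over the 12 libraries, 20 of the 45 pairs had a Pearson r over 0.9 in log2 CPM, and the lowest pair was Isg20 and Ifitm3 at 0.114. The share of such pairs among all genes was not counted. Against the mean of the other effectors, Mx2, Bst2 and Cmpk2 had an r of 0.986, 0.982 and 0.981, while Samhd1, Isg20 and Ifitm3 had 0.762, 0.734 and 0.596. The tested genes outside the list whose course was most like the mean of the effectors were Gbp2, Cd274, Gbp6, Oas1g and Gm21188, with r from 0.995 to 0.998. Gbp2 and Gbp6 are interferon-inducible GTPases, Oas1g an oligoadenylate synthetase and Cd274 the checkpoint ligand PD-L1. These libraries fall into 4 treatment groups, so these values describe the group pattern and carry no test. Reads shared with similar genes could move the counts of these Gbp, Oas and Gm genes. The counting rule for such reads is not given in the sources used here.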

How the data were processed

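RNA of 12 FLAM libraries, made with a stranded mRNA kit, was sequenced. Per the series' design text and the submitters' processing notes, the authors aligned reads to GRCm39 with Bowtie2 2.4.1 and counted them with featureCounts of Subread 2.0.0. The deposited count table holds whole reads per gene symbol. The deposited normalized signal equals each count divided by 1 constant per library and was used only in an alternative. Annotation, strand setting and the rule for multiply mapped reads are not given in the sources used here. Bowtie2 does not split reads over introns, so junction reads can be lost. Among the effectors, Mx1, Cmpk2, Isg20, Eif2ak2 and Ifitm3 share annotated exon bases with a gene on the other strand. So do the pathway genes Jak1, Tyk2, Irf1, Irf3, Irf5, Irf7, Usp18, Socs1, Socs3 and Isg15. Of the relatives, Ifitm2, Ifitm7, Eif2ak1, Eif2ak3, Eif2ak4, Isg20l2, Aen, Dnm1l, Dnm2, Prkra and Adar do too. Ifitm2, Ifitm10, Ifnar2 and Irf9 share such bases with a gene on the same strand. Reads of all these genes may mix.

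Genes were filtered with filterByExpr of edgeR 4.0.16 (minimum count 10, 14749 genes kept), scaled with TMM and tested with its robust quasi-likelihood test in R 4.3.3 on all 12 libraries with 4 group means. A gene was called at an adjusted p under 0.05 (Benjamini-Hochberg, all 14749 genes). The SE is the log2 fold change divided by the square root of F. Log2 CPM for correlations used a prior count of 2. Positions and exon lengths come from GENCODE M39. Named genes are the 10 effectors, a list of 17 interferon pathway genes (1 further gene is not reported here), a list of 17 relatives, and the 5 genes most like the effectors' mean course. Members and lists were chosen with earlier results of these data known. The test was also run on simulated counts, and the outcome of that run is not given here. Alternatives were DESeq2-type size factors, upper-quartile scaling, DESeq2 1.42.0, and limma-trend (limma 3.58.1) on log2 of the normalized value plus 1. Further ones were a replicate block, fits of the compared libraries alone, and leaving out each library in turn. The count filter was also dropped or raised to 10 counts in each library. A fit without the 3 libraries that stood apart from their groups was added after the data were seen.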

Additional observations from a re-analysis of the deposited data

Results flagged for a closer look

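All 10 effectors are given here because TGFβ-treated cells answered Pam3 by a different amount than cells without TGFβ, with the difference itself tested as an interaction (edgeR, adjusted p under 0.05 for each). On the log2 scale, the response with TGFβ exceeded that without it by 5.89 for Ifitm3, 4.29 for Mx1, 3.24 for Rsad2, 3.12 for Cmpk2 and 3.06 for Mx2. It exceeded it by 2.00 for Isg20, 1.66 for Xaf1, 1.41 for Bst2, 1.14 for Eif2ak2 and 0.39 for Samhd1. The same test called 10.3% of all genes higher. The interaction also equals the TGFβ effect with Pam3 minus that at rest, which were -1.29 and -7.17 for Ifitm3, 1.06 and -3.23 for Mx1, 2.63 and 0.63 for Isg20, and 1.6 and -0.06 for Xaf1.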

How the results depend on the processing

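No setting made a called change of an effector reverse. Of 435 values under other settings, 425 kept direction and call, 9 lost the call and 1 gained it, and of 600 values with a library left out, 583 kept both, 14 lost and 1 gained the call. The resting TGFβ effect on Xaf1, not called, ran from -0.17 to 0.12 with a library left out and was above 0 without untreated replicate 2 (0.11) and without TGFβ replicate 3 (0.12); the cause was not tested.

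The number of effectors called ranged, with a library left out, from 7 to 10 for Pam3 without TGFβ, from 6 to 9 for TGFβ at rest, and it was 10, 9 and 10 in each fit for Pam3 with TGFβ, TGFβ with Pam3 and the interaction. The medians ranged from 1.47 to 1.59 and from 4.72 to 5.05 for Pam3 without and with TGFβ, from -0.68 to -0.56 and from 1.26 to 1.4 for TGFβ without and with Pam3, and from 2.36 to 2.61 for the interaction. With at least 10 counts in every library, Ifitm3 leaves the list, and the medians of the remaining 9 were 2.12 and 3.78 for Pam3, -0.46 and 1.62 for TGFβ, and 2.00 for the interaction. With the 3 libraries that stood apart left out together, the median for Pam3 with TGFβ was 5.05. Over all settings and left-out libraries, the number of all genes called ran from 1965 to 2903 for Pam3 without TGFβ and from 4856 to 6152 with it. It ran from 6733 to 7614 for TGFβ at rest, from 5984 to 7085 for TGFβ with Pam3 and from 1889 to 2577 for the interaction.

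No pairing of the libraries by replicate number was seen. Same-numbered libraries had correlations of their deviations from -0.174 to 0.3, over 0.1 in 7 of 18 pairs. Of 12 libraries, 5 were closest to their own number. The check cannot exclude a pairing, because the libraries that stood apart also shape these deviations (untreated replicate 3 and TGFβ replicate 2, -0.397). The fit with a replicate block called 10 effectors for Pam3 without TGFβ, 10 for Pam3 with TGFβ, 8 for TGFβ at rest, 9 for TGFβ with Pam3 and 10 for the interaction, with medians of 1.54 and 4.85 for Pam3 and 2.54 for the interaction. Depth limits Ifitm3 with TGFβ alone, where 8 counts in all set its fold changes.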
